A study of Sus scrofa with 6 samples.

Results

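The 208 transcripts described here are long non-coding RNAs (lncRNAs) of the pig (Sus scrofa) that lie close to an annotated gene. The study marked them as not conserved in human or mouse by genome alignment. It set a minimum share of aligned bases for a conserved lncRNA, and partial alignment of members below that share was not checked. The 208 were taken from the readable rows of the study's supplementary catalogue, which hold 1998 of its 10813 lncRNAs. Within them, 987 lncRNAs were classed as cis-regulatory. The study defines this class as within a set distance upstream or downstream of a gene, on either strand, with no exonic overlap. Overlap with gene exons was not checked again here. The catalogue's transcript codes were u for 175 of the 208, o for 18 and x for 15. Assembly software uses o and x for exonic overlap with a reference transcript, so the definition may not hold for these. Of the 987, 230 were marked as not conserved by genome alignment, and 22 that the catalogue also lists as tissue-specific were left out. The tissue-specific list was readable only in part, so some of the 208 may belong to it too. The members fall into 167 loci and were paired by the catalogue with 183 neighbour genes, of which 157 have values in the files.

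Ribosome-depleted, strand-specific RNA sequencing was carried out on ovary at 49 days post coitus from the Meishan breed (3 samples) and the Large White breed (3 samples), with no treatment or genetic change named. The labels do not say whether the ovary was that of a fetus or of its dam. They also do not say whether the samples of a breed came from separate animals or litters, and the study's methods name 3 individuals as biological replicates only in a passage that does not mention these ovary samples. Each p-value therefore measures only the spread between these samples, which may be technical. The catalogue itself was built from other pigs, mainly Guizhou miniature pigs, and a member can therefore be a transcript that these breeds or this tissue do not make.

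A lncRNA that starts beside a protein-coding gene can share its promoter region, overlap its regulatory elements or be transcribed through them, and some such transcripts alter the output of the gene in cis while others have no known effect. Sequence turnover is fast in lncRNAs, and many are found in only 1 lineage of mammals. A sense lncRNA next to a gene can also be an unannotated first or last exon of that gene, which the class does not separate from an independent transcript.

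Between 35185781 and 39033204 mapped read pairs, called reads here, lay behind the 6 libraries. Of the 48 cell type markers listed for this work, 30 were matched to a gene in the files. CYP11A1, which makes the first steroid from cholesterol, ranged from 506 to 1882 RPKM (reads per kilobase of transcript per 1000000 mapped reads). Of 5 matched germ cell markers, DDX4 was between 0 and 1.58 RPKM, TFAP2C between 0 and 0.0373 RPKM, STRA8 between 0.686 and 1.87 RPKM, PRDM1 between 0.653 and 3.09 RPKM, and KIT, which other cells also use, between 1.68 and 16.9 RPKM. The kidney marker UMOD was listed at 0 in all 6 samples. The library Meishan 3 stood apart. Its correlations with the other 5 libraries, over log2 values of all features tested, were 0.865 to 0.888, against 0.932 to 0.975 among the others. INSL3, a hormone of theca and Leydig cells, reached 235 RPKM in it and 1.04 to 15.6 RPKM elsewhere. CYP17A1, also of steroidogenic cells, was highest in it, at 59.2 RPKM against 1.28 to 25.7 RPKM. CYP11A1 went the other way and was lowest in it, at 506 RPKM against 1299 to 1882 RPKM elsewhere. FST, the follistatin gene, reached 37.2 RPKM against 6.77 to 9.56 RPKM. INHA and LHCGR were added after their values had been seen. INHA was at 491 RPKM in Meishan 3 and at 2.05 to 4.93 RPKM elsewhere, and LHCGR was at 28.5 to 37.8 RPKM in all 6 samples. In bulk tissue, fewer cells of a type and less RNA per cell cannot be told apart.

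The members were short transcripts, from 200 to 8063 nt with a median of 661 nt, and 137 of 208 had 2 exons. They lay on 16 chromosomes, with 47 on chromosome 6. By orientation, 126 were antisense to their neighbour gene, 76 were sense, and 6 had both a sense and an antisense neighbour. A CpG island was noted for 70. By the catalogue's second measure, a BLAST search of transcripts against lncRNAs of human and mouse, 95 had no hit, 75 had a hit in mouse only and 38 had hits in both.

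Most members were detected in few samples. The 6 files listed 135 of 208 (64.9%) above 0 RPKM in at least 1 sample and 41 in all 6, and 73 (35.1%) were at 0 throughout. Among all 10813 lncRNAs, 57.1% were above 0 in at least 1 sample and 17.2% in all 6. In single samples a mean of 39.0% of members were above 0, against 34.1% of all lncRNAs. It was 48.3% of the 1998 readable lncRNAs, from which the members were drawn and which include tissue-specific ones. A value of 0 does not show absence: a count of 0 still allows up to 3 reads, worth 0.116 to 0.129 RPKM for a transcript of the median length and 0.384 to 0.426 RPKM for the shortest. These limits cover counting error only. They assume that reads of the transcript could be assigned to it, which does not have to hold where exonic bases are shared with another lncRNA.

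Detection was uneven across the members. All 19 members whose every exonic base is shared with another listed lncRNA were at 0, as were 29 of 62 that share some bases and 25 of 127 that share none. Among the 127 without shared bases, 102 (80.3%) were above 0 in at least 1 sample. Length moved with detection as well, since 37 of 71 members under 500 nt, 53 of 76 from 500 nt to under 1000 nt and 45 of 61 of 1000 nt or more were above 0 in at least 1 sample. Of the 518 cis-regulatory lncRNAs conserved in human and mouse, all 63 with every exonic base shared were also at 0. How reads on shared bases were assigned is not stated, so a 0 in members with shared bases sets no limit on their level. The part of shared bases and of length in the zeros was not tested.

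**Figure D1:**
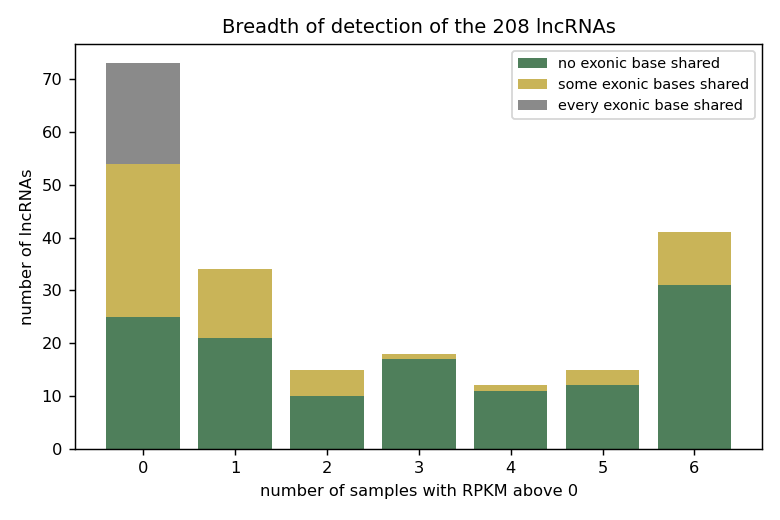
Number of lncRNAs (vertical axis) by the number of samples, from 0 to 6, in which they were above 0 RPKM (horizontal axis), split by whether their exonic bases are shared with another listed lncRNA. Both ends hold the most, with 73 lncRNAs at 0 in every sample and 41 above 0 in all 6, and all 19 with every base shared are in the bar at 0.

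Detection was also counted by orientation, CpG island and BLAST hit. Above 0 in at least 1 sample were 80 of 126 antisense and 50 of 76 sense members, and 48 of 70 members with a CpG island against 87 of 138 without. By BLAST hit, 23 of 38 members with hits in both species were above 0 in at least 1 sample. The counts were 52 of 75 with a hit in mouse only and 60 of 95 with no hit, so they showed no trend. In all 6 samples, 10 of 38, 19 of 75 and 12 of 95 were above 0, in the same order. Median length also differed between these classes, at 1215.5, 682 and 543 nt. The part of length in these counts was not tested.

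Beside the 518 cis-regulatory lncRNAs conserved in both human and mouse, chosen in the same way, the members had a median length of 661 against 673 nt, and 64.9% against 62.7% were above 0 in at least 1 sample. In single samples, the percentage of members above 0 was lower than that of the conserved set in 5 of 6 samples, by a mean of -2.48 ± 2.11 percentage points (SD over 6 samples). The most abundant member reached a mean of 3.68 RPKM, whereas the conserved set went up to 60.6 RPKM and all lncRNAs up to 2882 RPKM. A mean of at least 1 RPKM was reached by 16 of 208 members and by 11.4% of the conserved set.

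Meishan samples had 79, 77 and 100 members above 0 RPKM, and Large White samples had 86, 74 and 71. The highest count was that of Meishan 3, and the breeds overlapped. The means were 85.3 ± 12.7 and 77 ± 7.94 (SD, n = 3 each), with p = 0.5 by a two-sided exact permutation test, in which 3 against 3 samples cannot give less than 0.1. Without Meishan 3 the mean difference of 8.33 members shrank to 1.

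All members together held 11791 reads, and 10 of them held 51.9% of these. In 20 members the 6 samples gave only 1 to 3 reads in total, and 27 members had over 100. Meishan samples gave 53.6, 59.3 and 56.9 member reads per 1000000 mapped, and Large White samples gave 47.2, 47.5 and 52.6. Each Meishan sample thus lay above each Large White sample. Means were 56.6 ± 2.86 and 49.1 ± 3.05 per 1000000 (SD, n = 3 each). The conserved set was ordered in the same way, at 461 ± 8.39 and 430 ± 1.96 per 1000000. A few abundant members make up most of these sums.

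Loci with several members showed how unevenly reads were assigned to transcripts of the same locus. Among the 34 such loci, which hold 75 members, 13 had every member at 0, 10 had 1 member above 0, and 11 had more than 1. Beside ELN, which encodes elastin, TCONS_00458767 took all 144 reads of the locus, and TCONS_00458766 and TCONS_00458768 were at 0 in every sample.

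For the comparison of breeds, 33 members and 104 neighbour genes had at least 0.5 RPKM in at least 3 samples and entered the fit with 14902 features in all. A call needed an adjusted p under 0.05 (limma, Benjamini-Hochberg over all features) and a fold of at least 2 on the log2(RPKM + 1) scale, which understates the change of low transcripts. No member was called (0 of 33), against 0.925% of all lncRNAs tested. No neighbour gene was called either (0 of 104), against 0.739% of all protein-coding genes. An unadjusted p under 0.05 was found for 2 members (all lncRNAs: 14.7%) and 9 neighbour genes (all coding genes: 16.0%). limma-voom on the recovered reads also called 0 and 0, with 2 members (6.06%) and 8 neighbour genes (7.69%) at an unadjusted p under 0.05. In that fit 4 of 1514 lncRNAs and 75 of 13388 coding genes were called, and 10.5% and 16.7% had an unadjusted p under 0.05. The median log2 fold change, Meishan minus Large White, was 0.13 over the 33 members and 0.09 over all 1514 lncRNAs tested, and it was -0.02 over the 104 neighbours and -0.04 over all 13388 protein-coding genes.

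Some marker lists moved with breed too. The matched germ cell markers (5 of 9) summed to 4.94 to 9.64 RPKM in Meishan and 16.997 to 18.8 RPKM in Large White, there mostly from KIT. The other tested members of that list ran the other way, with log2 fold changes of 0.35 for PRDM1 and 0.24 for STRA8. The matched steroidogenic markers (3 of 5) summed to 800 to 1420 RPKM in Meishan and 1673 to 1917 RPKM in Large White, nearly all from CYP11A1. INSL3 in that list had the higher mean in Meishan, at 79.5 against 7.67 RPKM, through Meishan 3. CYP17A1, the third, was at 1.28, 1.89 and 59.2 RPKM in Meishan and 14.2 to 25.7 RPKM in Large White. SCARB1, a cholesterol uptake receptor added after its values had been seen, was at 1119, 908 and 252 RPKM in Meishan and 356 to 505 RPKM in Large White. White blood cell markers (3 of 3) summed to 7.92 to 14.8 RPKM in Meishan and 16.9 to 20.8 RPKM in Large White. No marker was called (0 of the matched markers tested, limma), and their part in the values below was not tested.

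Groups did not overlap in 3 of the 33 members, all with higher values in Meishan (all lncRNAs: 18.0% not overlapping, 10.4% with Meishan higher). They did not overlap in 13 of the 104 neighbours, 6 with Meishan higher and 7 with Large White higher (all protein-coding genes: 24.2%, of which 9.9% and 14.3% of those tested had Meishan and Large White higher). The shares without overlap, 9.09% of members and 12.5% of neighbours, were lower than these backgrounds. For members with Meishan higher, 9.09% was near the background of 10.4%. With only 33 members the counts are small, and the differences from the background were not tested.

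The 10 most abundant members lay between means of 1.81 and 3.68 RPKM, and none separated the breeds past the adjusted threshold. The first was TCONS_00359972 (chr16:77584575-77594644, pig genome v10.2 as the catalogue gives it, minus strand, 1285 nt), sense to SPARC, which encodes a secreted collagen-binding matrix protein. It measured 2.28, 4.58 and 3.21 RPKM in Meishan and 5.11, 2.76 and 4.11 RPKM in Large White, from 1048 reads in all. The breeds overlapped, with a log2 fold change of -0.20 ± 0.26 (SE) and an adjusted p of 0.741 (limma). SPARC itself was among the strongest neighbours, at 206, 165 and 313 RPKM in Meishan and 191, 173 and 237 RPKM in Large White.

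TCONS_00463515 (chr3:41627444-41629517, plus strand) lies beside SPSB3, a substrate receptor of ubiquitin ligases, on the opposite strand. The lncRNA also lies beside NUBP2, an assembly factor for iron-sulfur proteins, on its own strand. It measured 5.71, 3.92 and 1.99 RPKM in Meishan and 2.69, 1.62 and 5.92 RPKM in Large White. Both breeds spanned most of the range. SPSB3 ranged from 5.45 RPKM in Meishan 2 to 11.9 RPKM in Meishan 1, and NUBP2 was between 9.45 and 15.5 RPKM.

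TCONS_00172022 (chr13:47538285-47550424, plus strand, 460 nt) is sense to ENSSSCG00000024705, a gene with no symbol in the sources used. It measured 4.40, 4.44 and 4.96 RPKM in Meishan and 1.11, 4.12 and 2.74 RPKM in Large White. The breeds did not overlap, but Large White 2 came close to Meishan, and the log2 fold change of 0.70 ± 0.31 had an adjusted p of 0.321 (limma). The neighbour gene did not follow, at 7.32 to 12.2 RPKM in Meishan and 9.28 to 12.02 RPKM in Large White.

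TCONS_00159922 (chr12:34078680-34080833, minus strand, 593 nt, 3 exons) is antisense to TRIM25, a ubiquitin ligase of the innate response to viral RNA. It measured 8.44, 4.35 and 0.302 RPKM in Meishan and 1.68, 1.13 and 0.633 RPKM in Large White. Meishan 1 and Meishan 2 had the highest values and Meishan 3 the lowest, and the log2 fold change was 0.94 ± 0.65 with an adjusted p of 0.518 (limma). Without Meishan 3 the log2 fold change was 1.76 with an adjusted p of 0.0358, which met the call rule, as did 31 of the 1292 lncRNAs tested in that fit. TRIM25 measured 12.96, 11.5 and 9.95 RPKM in Meishan and 9.33, 10.21 and 9.21 RPKM in Large White. The order of samples was the same as for the lncRNA in Meishan but not in Large White. TRIM25 had a log2 fold change of 0.23 ± 0.16 (adjusted p = 0.522, limma).

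SMARCD1, a subunit of the SWI/SNF chromatin remodelling complex, had members on both strands. TCONS_00569029 (chr5:16336954-16338503, minus strand, 1499 nt) is sense to it and measured 3.87, 2.60 and 2.94 RPKM in Meishan and 2.16, 1.995 and 1.63 RPKM in Large White, from 846 reads. Every Meishan value lay above every Large White value. The log2 fold change was 0.49 ± 0.19 with an unadjusted p of 0.0323 and an adjusted p of 0.264 (limma). SMARCD1 itself measured 6.60, 7.95 and 12.2 RPKM in Meishan and 4.57, 5.13 and 5.21 RPKM in Large White, with a log2 fold change of 0.69 ± 0.22 and an adjusted p of 0.211 (limma). Lying on the plus strand next to the first, TCONS_00551223 (chr5:16334700-16336690, 1482 nt) is antisense to both SMARCD1 and GPD1, an enzyme of glycerol phosphate metabolism. It measured 1.94, 1.65 and 1.75 RPKM in Meishan and 1.23, 1.87 and 1.21 RPKM in Large White, so that Large White 2 fell within the Meishan range. SMARCD1 and TCONS_00569029 were the only tested pair in which both lncRNA and gene separated the breeds without overlap.

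**Figure D2:**
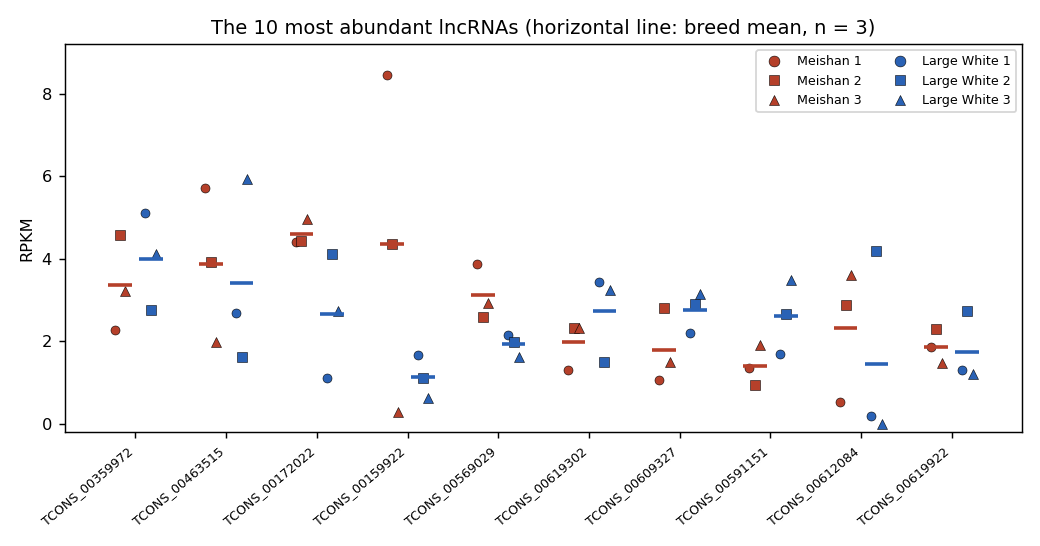
RPKM (vertical axis) of the 10 lncRNAs with the highest mean over 6 samples (horizontal axis, in that order), with Meishan samples in red, Large White samples in blue, marker shape for the replicate number and lines for breed means (n = 3). Only TCONS_00172022 and TCONS_00569029 have every Meishan point above every Large White point, and Meishan 1 at 8.44 RPKM for TCONS_00159922 is the highest value.

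The other 5 of the 10 all overlapped between breeds. TCONS_00619302 (chr6:52474205-52478234), antisense to a U6 small nuclear RNA gene, measured 1.302, 2.33 and 2.33 RPKM in Meishan and 3.44, 1.503 and 3.25 RPKM in Large White. TCONS_00591151 (chr6:39548276-39549220), antisense to the glycolytic isomerase gene GPI, measured 1.37, 0.941 and 1.92 RPKM in Meishan and 1.71, 2.67 and 3.49 RPKM in Large White, from only 90 reads. Its log2 fold change of -0.58 ± 0.25 had an adjusted p of 0.319 (limma), and GPI was at 54.6 to 101 RPKM with no separation of the breeds.

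TCONS_00612084 (chr6:14292053-14295018), sense to ENSSSCG00000002742, was split within the breeds. It measured 0.535, 2.87 and 3.60 RPKM in Meishan and 0.202, 4.18 and 0 RPKM in Large White. Meishan 2, Meishan 3 and Large White 2 were thus high and the other 3 samples low, while its neighbour gene, at most 3.96 RPKM, was highest in Meishan 1.

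TCONS_00619922 (chr6:57187285-57195119), antisense to ENSSSCG00000003989, measured 1.86, 2.29 and 1.48 RPKM in Meishan and 1.31, 2.73 and 1.22 RPKM in Large White. TCONS_00609327 (chr6:155370566-155371564), antisense to ENSSSCG00000021142, measured 1.08, 2.80 and 1.51 RPKM in Meishan and 2.21, 2.91 and 3.14 RPKM in Large White. This last lncRNA was above its neighbour gene in every sample, the gene being at 0 to 0.535 RPKM.

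The third tested member without overlap of the breeds, TCONS_00612898 (chr6:17424066-17425983), is sense to CCDC102A. It measured 0.921, 2.34 and 0.795 RPKM in Meishan and 0.328, 0.758 and 0.594 RPKM in Large White. Meishan 3 and Large White 2 were nearly equal, and the log2 fold change of 0.54 ± 0.28 had an adjusted p of 0.389 (limma). The members with an unadjusted p under 0.05 were TCONS_00569029 and TCONS_00560984, the latter with the smallest p of the 33. TCONS_00560984 measured 0.270, 0.748 and 0.115 RPKM in Meishan and 1.89, 0.719 and 2.02 RPKM in Large White. The breeds overlapped, and its log2 fold change of -0.87 ± 0.29 had an adjusted p of 0.223 (limma).

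The neighbour genes were mostly expressed. Of the 157 listed, 144 were above 0 in at least 1 sample and 108 in all 6, with a median of the mean level of 1.79 RPKM and a maximum of 277 RPKM for CALR, a calcium-binding chaperone of the endoplasmic reticulum. The median was 4.17 RPKM over the 386 listed neighbours of the conserved set and 1.73 RPKM over all protein-coding genes. Above 0 in at least 1 sample were 91.7% of the neighbours, 87.5% of all protein-coding genes and 96.1% of neighbours of the conserved set. For all 6 samples the shares were 68.8%, 66.5% and 83.9%.

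Per length, most members were listed below their gene. In 118 of 192 listed pairs the lncRNA had a lower RPKM than the gene in all 6 samples, and in 5 it had a higher one in all 6. The lncRNA was at 0 throughout in 62 of the 192 pairs. Such pairs count among the 118 where the gene was above 0 in all 6 samples, although a 0 does not have to mean a lower level. Over the 28 pairs in which both were tested, the median lncRNA level was 24.8% of that of the gene, with 36.5% in sense pairs and 12.4% in antisense pairs. Testing needed at least 0.5 RPKM in at least 3 samples, so these shares leave out the low lncRNAs. In the conserved set they were 23.7%, 39.3% and 16.4%. Where the lncRNA was above 0 in all 6 samples (38 pairs) the neighbour had a median of 6.10 RPKM, and where the lncRNA was at 0 throughout (62 pairs) it had a median of 0.604 RPKM. The same medians in the conserved set were 6.40 and 4.63 RPKM. These pairs share genes and loci, and the difference was not tested.

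**Figure D3:**
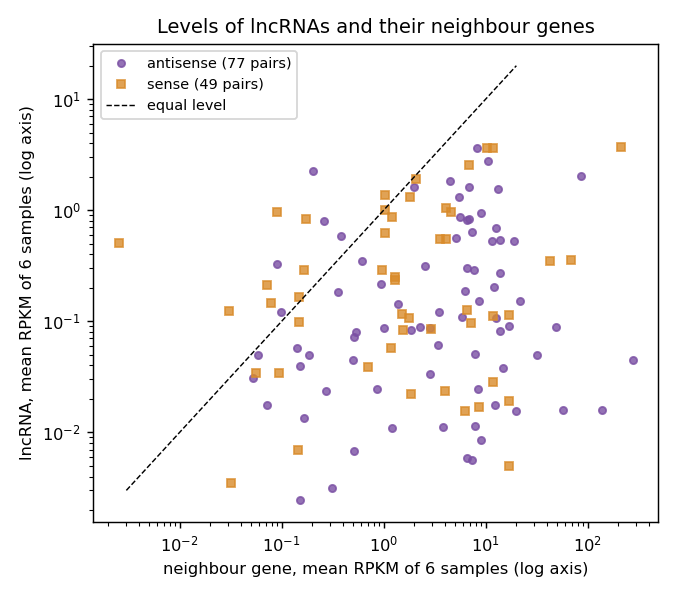
Mean RPKM over 6 samples of the lncRNA (vertical log axis) against that of its neighbour gene (horizontal log axis) for the 126 pairs in which both are above 0, with circles for 77 antisense and squares for 49 sense pairs. Most points lie below the dashed line of equal level, and genes with means over 10 RPKM have lncRNAs from below 0.1 to 3.68 RPKM.

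The 5 members above their gene in every sample include TCONS_00609327 and 4 sense members. TCONS_00463658 averaged 0.836 RPKM beside the lipid transporter gene ABCA3 at 0.172 RPKM, TCONS_00560984 averaged 0.959 RPKM beside ENSSSCG00000026873 at 0.0890 RPKM, TCONS_00620811 averaged 0.511 RPKM beside SLC45A1 at 0.00255 RPKM, and TCONS_00410618 averaged 0.123 RPKM beside IL12RB1, a cytokine receptor chain, at 0.0306 RPKM. All 5 genes had means under 0.5 RPKM, and they were named after their values had been seen.

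The breed difference had the same sign for lncRNA and gene in 17 of 28 tested pairs (60.7%), which cover 25 lncRNAs and 26 genes. It was 8 of 13 in sense pairs and 9 of 15 in antisense pairs, and 55 of 95 (57.9%) in the conserved set. Since most of the single differences were within their errors, the sign of many pairs is uncertain.

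**Figure D4:**
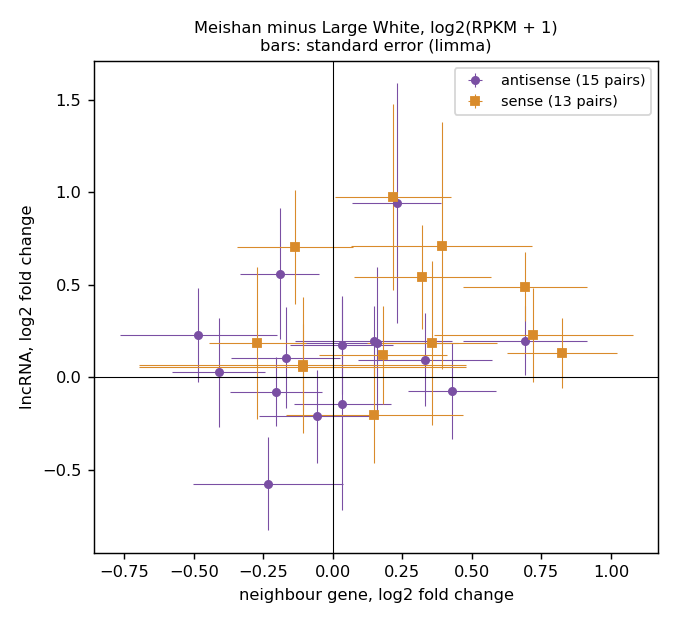
Log2 fold change, Meishan minus Large White on the log2(RPKM + 1) scale, of the lncRNA (vertical axis) against that of its neighbour gene (horizontal axis) for the 28 tested pairs, with circles for 15 antisense and squares for 13 sense pairs and bars for the standard error (limma). Points lie in all quadrants, 17 of 28 have the same sign on both axes, and most bars cross 0.

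Among neighbour genes of the matrix and cell surface, ELN had the smallest adjusted p of the 104 neighbours tested. It measured 3.34, 3.21 and 4.11 RPKM in Meishan and 10.9, 6.22 and 13.5 RPKM in Large White. All Large White values were higher. The log2 fold change was -1.25 ± 0.27 with an adjusted p of 0.0932 (limma), and over the 14 alternatives it ranged from -1.53 to -1.03 with adjusted p between 0.0626 and 0.395. The antisense TCONS_00458767 (chr3:10925871-10929283, plus strand) measured 0.246, 0.449 and 0.263 RPKM in Meishan and 1.35, 0.240 and 2.48 RPKM in Large White. It too was highest in Large White 1 and Large White 3, but Large White 2 was the lowest of all 6, and with only 2 samples at 0.5 RPKM or more it was not tested.

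In the chosen list of receptors, secreted and surface proteins, 9 of 18 genes were tested and 0 were called, with 4 higher and 5 lower in Meishan and a median log2 fold change of -0.03. B2M, the light chain of MHC class I, has 2 gene IDs under that symbol, between which reads may be split. The first (ENSSSCG00000004682) measured 285, 178 and 37.9 RPKM in Meishan and 136, 109 and 93.5 RPKM in Large White, with the lowest value in Meishan 3. Its antisense lncRNA TCONS_00019657 was above 0 only in Meishan 3, at 0.0944 RPKM from 2 reads.

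In the chosen list of transcription and chromatin genes, 11 of 12 were tested, 7 with higher and 4 with lower values in Meishan and a median of 0.22, and 0 were called. SMARCD1 was the one with an unadjusted p under 0.05. ARID3B, a DNA-binding ARID protein outside that list, measured 6.70, 5.06 and 3.37 RPKM in Meishan and 1.85, 2.36 and 1.97 RPKM in Large White. The breeds did not overlap, and Meishan 3 was the nearest to Large White. Its log2 fold change of 0.95 ± 0.23 had an adjusted p of 0.128 (limma), and without Meishan 3 it was 1.16 with an adjusted p of 0.0290, a call shared by 209 of the 13085 coding genes tested in that fit. The sense lncRNA TCONS_00645301 (chr7:63772142-63773676) measured 1.54, 0.112 and 0.0267 RPKM in Meishan and 0.296, 0.917 and 0.446 RPKM in Large White, and did not follow the gene.

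**Figure D5:**
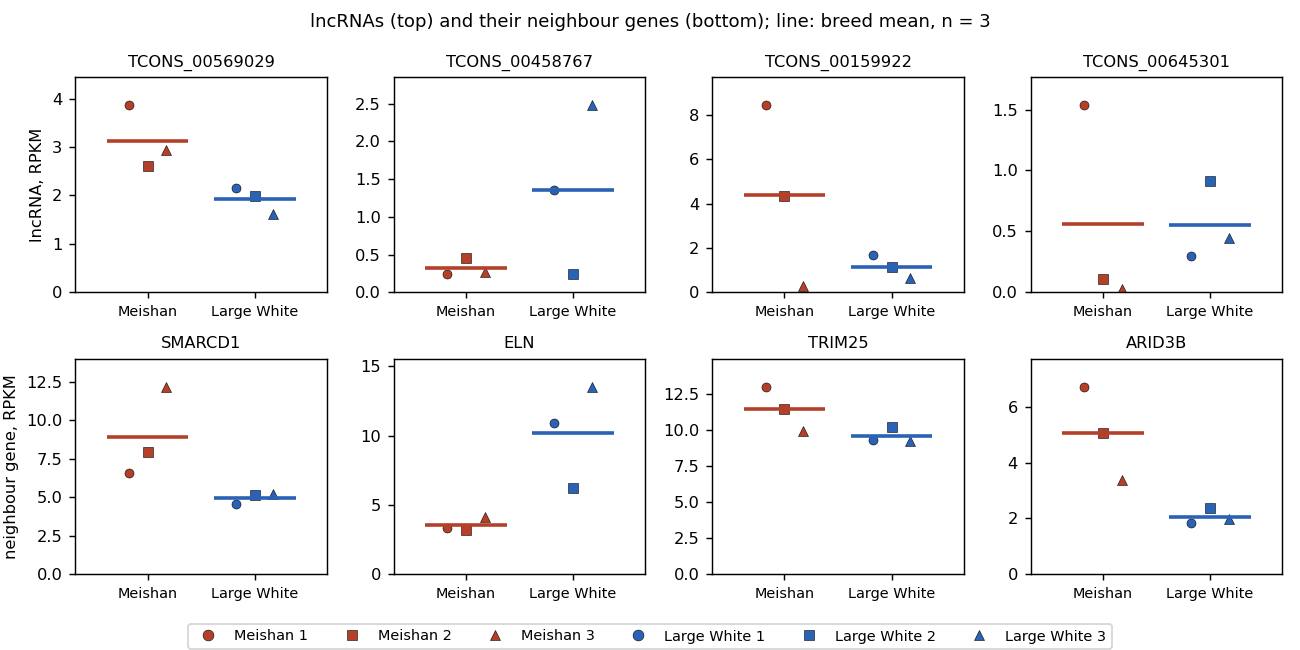
RPKM by breed of 4 lncRNAs (top row) and their neighbour genes (bottom row), with Meishan samples in red, Large White samples in blue, marker shape for the replicate number and lines for breed means (n = 3). The breeds do not overlap for SMARCD1, its sense lncRNA TCONS_00569029, ELN and ARID3B, and they overlap for the other 4.

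A chosen list of mitochondrial and metabolic neighbours had 12 of 13 genes tested, 4 with higher and 8 with lower values in Meishan and a median of -0.24, and 0 called. The list is not complete, since NDUFB8, SUOX and NUBP2 are tested neighbours of the same kind with log2 fold changes of -0.52, 0.17 and -0.27. NME6, of the nucleoside diphosphate kinase family, measured 7.03, 7.60 and 8.31 RPKM in Meishan and 5.74, 4.74 and 5.83 RPKM in Large White (adjusted p = 0.253, limma). SMPD3, a neutral sphingomyelinase, was at 1.22 to 1.86 RPKM in Meishan and 0.782 to 1.09 RPKM in Large White. Both separated the breeds without passing the test.

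The chosen list of ubiquitin, translation control and trafficking neighbours was tested in full (15 of 15 genes), 7 with higher and 8 with lower values in Meishan and a median of -0.01, and 0 were called. ENSSSCG00000000908, named UBE2NL in the Ensembl names and UBE2N, a ubiquitin-conjugating enzyme, in the catalogue, measured 15.3, 17.3 and 20.3 RPKM in Meishan and 26.6, 26.2 and 25.4 RPKM in Large White. The log2 fold change was -0.55 ± 0.17 with an adjusted p of 0.188 (limma). Its antisense lncRNA TCONS_00580264 was at 0 in 3 samples and at most 0.478 RPKM in the rest.

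The remaining neighbours named for their separation of the breeds also did not pass the test. ENSSSCG00000006344 measured 1.93, 2.05 and 1.49 RPKM in Meishan and 0.602, 0.808 and 0.378 RPKM in Large White, with a log2 fold change of 0.83 ± 0.20 and an adjusted p of 0.121 (limma), while its sense lncRNA TCONS_00517452 overlapped between breeds at 0.641 to 1.21 RPKM. ENSSSCG00000026672 had a log2 fold change of -0.81 ± 0.20 and an adjusted p of 0.136. CFAP36, a cilia-associated protein, and CAMK1, a calcium-dependent kinase, had -0.50 ± 0.19 and -0.41 ± 0.17, with Large White higher in every sample.

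Members were also followed beside 9 genes chosen by annotation, with earlier results of these data known. Beside SMARCD1 both members were abundant, with the values given above, and beside the other 8 no member reached 1 RPKM in any sample. The sense lncRNA TCONS_00593209 beside LHB, the beta chain of luteinising hormone, measured 0.0692, 0.0340 and 0.519 RPKM in Meishan and 0.684, 0 and 0.441 RPKM in Large White, and LHB was listed at 0 in Large White 2 and at 0.835 to 1.47 RPKM elsewhere. Both were thus at 0 in the same sample. The sense lncRNA TCONS_00458505 beside UPK3B, a uroplakin gene, was above 0 in every sample, at 0.108 to 0.526 RPKM, with the gene at 0.0997 to 0.275 RPKM.

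Beside CALR, HMGB1, KCNN2 and THBS2 the gene was well expressed while its lncRNAs were at most 0.219 RPKM. CALR was at 200 to 422 RPKM, and its antisense TCONS_00439599 was above 0 only in Meishan 3 and Large White 1, at 0.0495 and 0.219 RPKM. HMGB1, a chromatin protein, was at 23.9 to 41.4 RPKM, and TCONS_00117082 beside it had no reads. KCNN2, a calcium-activated potassium channel, was at 11.1 to 12.8 RPKM, and its sense lncRNAs TCONS_00422398 and TCONS_00422418 were at most 0.219 and 0.0890 RPKM. THBS2, a thrombospondin, was at 5.96 to 10.6 RPKM, and TCONS_00044851 had reads only in Meishan 2. The imprinted gene DLK1 had 1 gene ID at 0 and another at 0.164 to 1.49 RPKM, and TCONS_00656062 had reads only in Meishan 1, at 0.231 RPKM.

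Small RNA genes were the only neighbours of 9 members, of which 2 were above 0 in all 6 samples and 7 were at 0 throughout. In the immunoglobulin lambda variable cluster on chromosome 14, 5 of 7 members were above 0 in at least 1 sample. The most abundant of these, TCONS_00268253 (chr14:52226984-52265619), measured 0.505, 1.82 and 2.52 RPKM in Meishan and 0, 1.81 and 0 RPKM in Large White, with Meishan 2, Meishan 3 and Large White 2 high.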

How the data were processed

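Total RNA of ovary from 3 Meishan and 3 Large White samples had been depleted of ribosomal RNA and sequenced as strand-specific read pairs. The authors aligned the reads (TopHat2 2.1.0 per the submitters' processing notes), counted them by strand over lncRNAs and protein-coding genes with HTSeq, and deposited RPKM values. The study's methods name pig genome v10.2 as the reference and state that the added ovary libraries were handled like the rest, and coordinates are those of the catalogue on that build. The members and gene lists were chosen with earlier results of these data known. 

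From the catalogue's transcript lengths, every RPKM value above 0 was traced to a whole number of reads (100% within 0.001 of a read, 25081 features), which gave the depth of each library. Gene lengths were found by search, so a common factor in a gene's reads cannot be told apart from its length. Symbols were found for 127 of 183 neighbour genes, 80 from Ensembl names and 47 from the catalogue. RPKM values were set to log2(RPKM + 1) and features with at least 0.5 RPKM in at least 3 samples were fitted by breed with limma 3.58.1 (lmFit, eBayes with trend; R 4.3.3), with Benjamini-Hochberg adjustment over all 14902. Counts per sample were compared by an exact permutation test (scipy 1.17.1). Scripts were tested on simulated data. Same-numbered samples of the breeds deviated with correlations of -0.04, 0.12 and 0.15, so the numbers were not used as pairs. Alternatives were another pseudocount (0.1), another or no minimum, quantile normalization, upper quartile scaling, no variance trend, no minimum fold, limma-voom on the reads, a replicate block, and leaving out each sample.

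Named were the 10 members with the highest mean, up to 5 members and 5 neighbours in each direction with the largest log2 fold change among those tested without overlap of the breeds, any called, and members beside DLK1, LHB, THBS2, CALR, HMGB1, SMARCD1, B2M, KCNN2 and UPK3B. Others were named after their values had been seen.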

Additional observations from a re-analysis of the deposited data

How the results depend on the processing

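Leaving out 1 sample at a time gave between 0 and 1 called members and between 0 and 1 called neighbour genes. The single calls, TCONS_00159922 and ARID3B, came without Meishan 3, where 29 members and 101 neighbours were tested and 31 of 1292 lncRNAs and 209 of 13085 coding genes were called, and no other alternative called any. The share of pairs with the same sign ranged from 57.7% to 70.8% over the alternatives, and the difference in detected members, from 1 to 12.8, kept its direction. With the replicate number as a block 0 and 0 were called, with 5 members (15.2%) and 14 neighbours (13.5%) at an unadjusted p under 0.05, against 15.6% of all lncRNAs and 16.2% of coding genes. The block pairs samples by a number only.

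Of 546 log2 fold changes of the 39 named features tested, 25 changed sign, none of them past the threshold. CALR changed to 0.24 with quantile normalization and 0.0704 with upper quartile scaling, HMGB1 to 0.0030 with quantile normalization, and KCNN2 to 0.0256 and 0.0395 with these scalings. With each sample left out, the log2 fold change ranged from -0.10 to 0.36 for SPARC, from -0.13 to 0.57 for TCONS_00463515, from -0.0620 to 0.43 for SPSB3, from -0.30 to 0.0332 for ENSSSCG00000024705, from -0.41 to 0.0218 for GPI, from -0.0389 to 0.34 for TCONS_00619922, from -0.32 to 0.19 for DLK1, from -0.24 to 0.41 for LHB, from -0.36 to 0.17 for CALR, and from -0.43 to 1.01 and from -0.79 to 0.19 for the B2M genes. The cause was not tested. In the counts 73 members had no read, 19 of them with every exonic base shared, and 175 of 208 were below the minimum and were not compared.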
